A study of Mus musculus with 22 samples.

Results

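S100 proteins are small calcium-binding proteins that carry a pair of EF-hand motifs and mostly work as dimers, and the 10 S100 genes S100a1, S100a4, S100a6, S100a8, S100a9, S100a10, S100a11, S100a13, S100a16 and S100b were followed here through inguinal/mammary white adipose tissue (IWAT) next to a breast tumor. The genes were taken by their symbols from the deposited table, which holds 23420 genes. All 10 were in the table, and 9 of them were among the 14458 genes that passed the filter on low counts, S100a9 being the exception. RNA was sequenced from 22 fat pads of 11 wildtype female C57Bl/6 mice. Chow was fed to 5 of them, the lean mice, and high fat diet (HFD) for 16 weeks to 6, the obese mice. At the age of about 20 weeks each mouse received cells of E0771, a breast cancer line from a C57Bl/6 mouse, in Matrigel on one side, and Matrigel without cells on the other. The pad of the first side is called tumor-associated IWAT and the other control IWAT, and both were collected 2 weeks later. No group held mice without a tumor, so control IWAT also came from tumor-bearing animals, and all tumors were of 1 cell line. The tumor and a sheet of fat around it were cut away from the tumor-associated pad, and the inguinal lymph node was removed.

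Inside cells, S100 proteins change shape when calcium rises and then bind target proteins such as annexins, myosin heavy chain and membrane channels. Some are also released, and outside the cell they act on receptors such as RAGE (Ager) and Tlr4. In fat, members of the family are made by adipocytes, fibroblasts, endothelium, nerve sheath cells and infiltrating leukocytes, and S100A4 in particular is known from fibroblasts and macrophages around tumors and S100A8 and S100A9 from neutrophils.

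Of the 10 genes, 9 lie on chromosome 3 (GENCODE M21, GRCm38, the same assembly as mm10). From S100a1 to S100a9, 7 of them lie within 184.688 kb. S100a4 (chr3:90603771-90606045) and S100a6 (chr3:90612882-90624181) are neighbors on the plus strand with 6836 bases between them, of which S100a5 takes a part. S100a1 (chr3:90511034-90514392, minus strand) and S100a13 (chr3:90514435-90524581, plus strand) run away from each other with 42 bases between. S100a11 (chr3:93520488-93526287) and S100a10 (chr3:93555080-93564643) form a second group, 28.792 kb apart, and S100b (chr10:76253853-76261159) lies alone on chromosome 10. All 10 are protein-coding. S100a4 shares 302 exon bases with the annotated gene Gm42674 on the same strand, which is no row of the deposited table.

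The promoters of S100a4 and S100a6 are shown because these neighbors rose together in 3 of the 4 comparisons between groups, and that of S100a13 because most of it is also the promoter of S100a1, whose level differed between diets while that of S100a13 was not called. The sequences are those of RefSeq on GRCm38.p6 and run from 250 bases before to 50 bases after the annotated start; 9 of the 10 genes had an entry, S100a10 being the exception. Capitals mark TATAAA in S100a4 (chr3:90603520-90603819, plus strand), which begins at -31 from the start site, and in S100a13 (chr3:90514185-90514484, plus strand) the 204 bases that the promoter of S100a1 covers on the minus strand. S100a6 (chr3:90612644-90612943, plus strand) held none of the motifs searched and has no capitals.
S100a4: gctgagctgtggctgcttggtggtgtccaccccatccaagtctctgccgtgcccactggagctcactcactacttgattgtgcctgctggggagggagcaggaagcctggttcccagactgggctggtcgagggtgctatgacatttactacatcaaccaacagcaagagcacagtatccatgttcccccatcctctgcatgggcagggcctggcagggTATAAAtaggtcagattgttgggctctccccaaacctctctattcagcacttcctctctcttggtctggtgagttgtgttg
S100a6: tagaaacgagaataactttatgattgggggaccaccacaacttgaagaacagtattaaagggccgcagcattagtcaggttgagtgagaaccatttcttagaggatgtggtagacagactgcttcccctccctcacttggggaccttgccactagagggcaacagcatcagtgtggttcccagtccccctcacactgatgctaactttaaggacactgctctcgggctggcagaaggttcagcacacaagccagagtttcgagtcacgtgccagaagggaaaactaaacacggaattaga
S100a13: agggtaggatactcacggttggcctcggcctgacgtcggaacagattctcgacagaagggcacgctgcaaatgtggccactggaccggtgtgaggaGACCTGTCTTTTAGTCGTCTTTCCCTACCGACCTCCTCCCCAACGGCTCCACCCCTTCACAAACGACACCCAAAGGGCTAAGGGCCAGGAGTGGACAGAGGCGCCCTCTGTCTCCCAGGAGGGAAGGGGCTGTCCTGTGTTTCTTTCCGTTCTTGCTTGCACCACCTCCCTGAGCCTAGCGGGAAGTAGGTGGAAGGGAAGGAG
Searched on both strands in the 10 promoters of these 9 genes, TATAAA was in 3 (S100a4, S100a8 and S100a9), against 13.6% of 32851 mouse promoters of the same length. The AP-1 letters TGANTCA were in 2 (S100a11 and 1 promoter of S100a16), against 7.81%, the C/EBP letters TTGCNNAA in 1 (S100a9), against 10.8%, and the NF-kB letters (GGG, any pair of bases, TT, any base, CC) in 1 (the other promoter of S100a16), against 4.79%. These are matches of letters only.

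Libraries held 5759775 to 8598108 reads on genes, with group medians from 6061263 to 7289274. Levels are given as CPM, counts scaled to the TMM-normalized library total, and a gene was called at a Benjamini-Hochberg adjusted p under 0.05 in edgeR's quasi-likelihood test over all 14458 genes. Fat pads are mixtures, so more RNA of a gene per cell and more cells that make it cannot be told apart in any value below. Nothing in the labels separates technical from animal-to-animal spread beyond the mouse number. Unless another fit is named, the spread behind each p was estimated over all 4 groups together, each of pads from 5 or 6 mice. A p for lean mice therefore also draws on the spread between obese pads, and the reverse.

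Tumor presence in lean mice was accompanied by higher S100a4 and S100a10. These were 2 of the 9 genes tested, both higher, and among all 14458 genes 4.18% were called and 3.27% were called higher. The median log2 fold change was 0.44 over the 9 S100 genes and 0.01 over all genes. In obese mice S100a4, S100a6, S100a10 and S100a11 were called higher and S100b lower, which makes 5 of 9, where 54.5% of all genes were called, 26.8% higher and 27.7% lower. With both pads of obese mice 0, 2 and 4 left out, 5 of 9 were called, all higher, where 23.1% of 14581 genes were called and 11.7% were called higher. With upper-quartile normalization the genes called were 382 higher and 199 lower in lean mice, against 473 and 132 with TMM. Groups that did not overlap were found in lean mice for S100a4 and S100a10 (higher) and S100a1 (lower), where 5.33% and 3.03% of all genes did so, and in obese mice for S100a4, S100a6 and S100a10 (higher) and no S100 gene lower, where 9.95% and 9.66% did so. The medians in obese mice were 0.15 for the S100 genes and -0.02 for all genes.

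**Figure D1:**
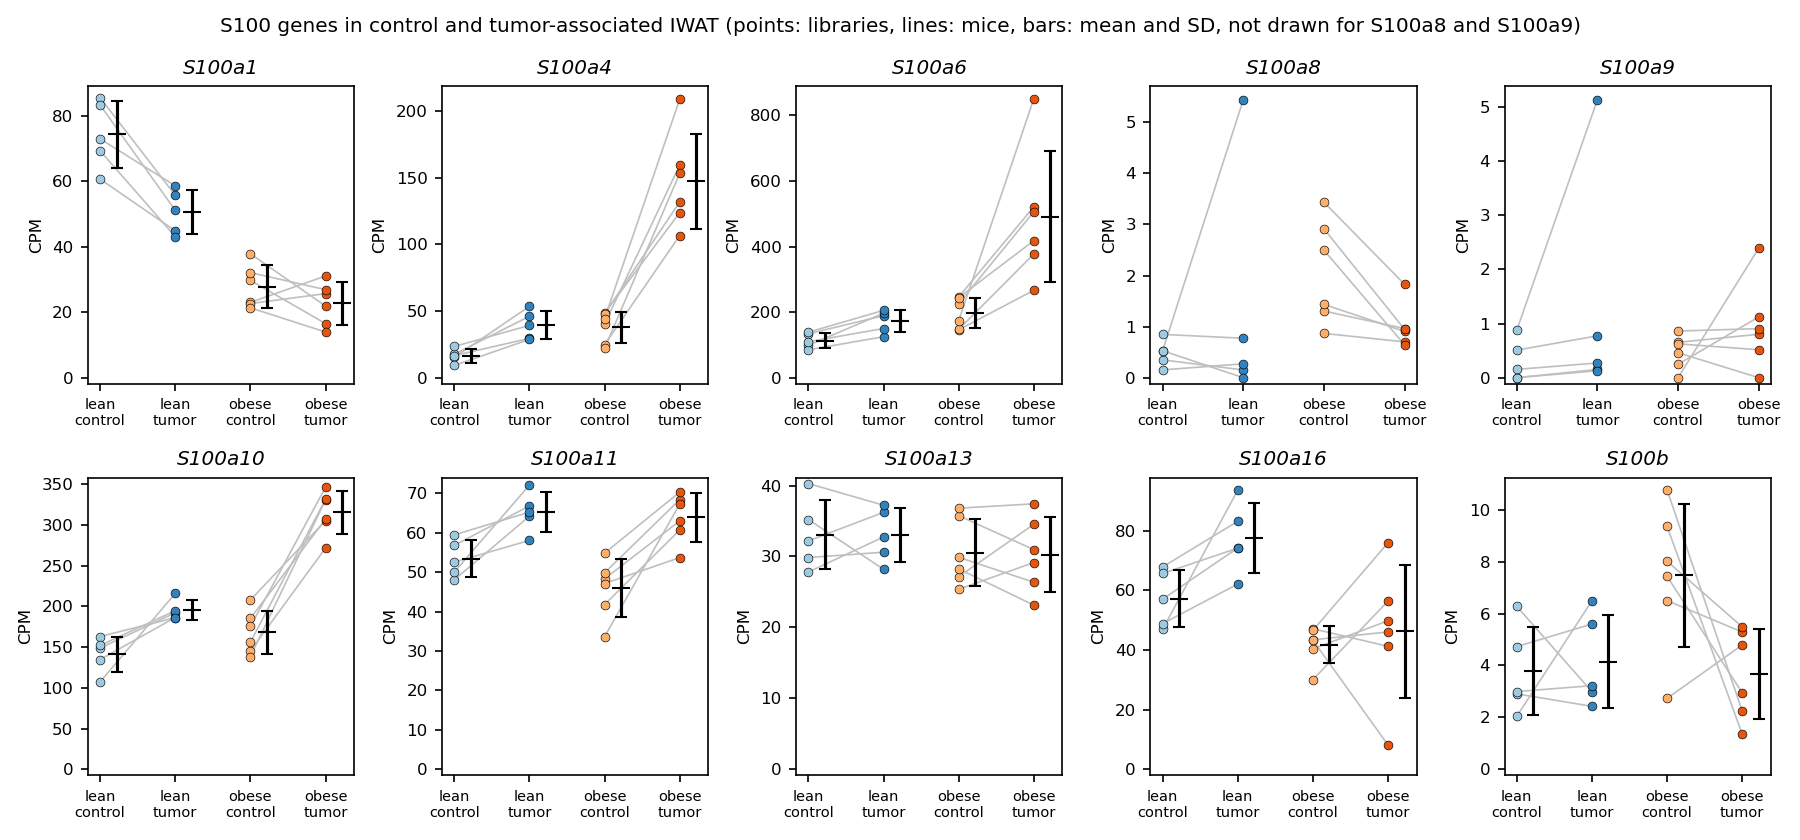
CPM of the 10 S100 genes (y axis, a separate scale for each gene) in the 22 libraries, by group, with gray lines joining the pads of a mouse and bars for the mean and SD, which are not drawn for S100a8 and S100a9. All 6 obese tumor-associated libraries of S100a4 lie between 107 and 209 CPM and all other libraries at or below 53.5 CPM.

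S100a4, also called metastasin, binds non-muscle myosin and is linked to cell motility. It stood at 17.5, 15.2, 16.5, 9.15 and 23.4 CPM in the control IWAT of lean mice 0, 2, 3, 6 and 9, and at 46.0, 53.5, 29.5, 28.7 and 39.2 CPM in the tumor-associated IWAT of the same mice. The groups did not overlap, and the tumor-associated pad was higher in 5 of 5 mice. The log2 fold change was 1.26 (SE 0.26, 95% interval 0.72 to 1.80, edgeR adjusted p = 0.0081). In obese mice the control pads ran from 21.9 to 48.3 CPM with a median of 42.2, and the tumor-associated pads from 107 to 209 CPM with a median of 142. The tumor-associated pad was higher in 6 of 6 obese mice, by 1.96 on the log2 scale (SE 0.23, 95% interval 1.47 to 2.44, edgeR adjusted p = 5.03e-06). Both calls held with each of the 22 libraries left out in turn.

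S100a4 was also higher with HFD. In control IWAT the mean was 37.9 ± 11.7 CPM (n = 6, SD) in obese against 16.4 ± 5.10 CPM (n = 5, SD) in lean mice, a log2 fold change of 1.21 (SE 0.25, edgeR adjusted p = 0.00262), although the highest lean pad, at 23.4 CPM, lay above the lowest obese pad at 21.9 CPM. In tumor-associated IWAT the mean was 147 ± 35.8 CPM (n = 6, SD) against 39.4 ± 10.7 CPM (n = 5, SD), a log2 fold change of 1.90 (SE 0.25, edgeR adjusted p = 1.51e-05), with no overlap between the groups. The tumor change was larger in obese mice by 0.70 (SE 0.34, 95% interval -0.02 to 1.41, edgeR adjusted p = 0.161), which did not pass the test.

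Macrophage markers were followed beside S100a4. All 8 macrophage markers in the table were tested, and edgeR called 5 higher and none lower in lean and 6 higher and none lower in obese tumor-associated IWAT, among them Itgam (log2 fold changes 1.52 and 2.23), Cd68 (1.61 and 1.43) and Fcgr1 (2.48 and 3.31). Obese exceeded lean IWAT in 2 of the 8 in control and in 4 of the 8 in tumor-associated pads. Among all genes 3.27% and 26.8% were called higher in lean and obese tumor-associated IWAT. Between diets 9.54% and 24.7% of all genes were called higher in control and tumor-associated pads. The summed level of the 8 genes ran from 463 to 1050 CPM in lean control, from 1045 to 1925 in lean tumor-associated, from 800 to 1153 in obese control and from 1040 to 2856 CPM in obese tumor-associated libraries. In obese mouse 4, whose S100a4 differed most between pads (21.9 and 153 CPM, or 6.98-fold), the macrophage sum was 800 CPM in the control and 1040 CPM in the tumor-associated pad. Both were the lowest of their groups, whose medians were 973 and 2547 CPM. Of 8 fibroblast markers, 3 rose in lean mice (Col1a1, Col1a2 and Thy1), and in obese mice the same 3 rose and Dcn fell. The fibroblast sums were 2806 to 4204, 5169 to 7334, 2610 to 4664 and 1776 to 8387 CPM in the same order of groups. Fibroblast markers called between diets were 0 in control IWAT (also 0 at an unadjusted p under 0.05 in edgeR, and 0 by DESeq2) and 3 in tumor-associated IWAT (Dcn, Lum and Pi16, all lower in obese mice). With both pads of obese mice 0, 2 and 4 left out, 6 macrophage markers were called higher in lean and 7 in obese tumor-associated IWAT. Between diets 2 were then higher and 1 lower in control, and 4 higher in tumor-associated IWAT. Fibroblast markers called were then 4 higher in lean mice, and 2 higher and 0 lower in obese mice. Between diets 0 fibroblast markers were then called in control and 2, lower with HFD, in tumor-associated IWAT. The part of these cell types in the S100a4 result was not tested.

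S100a6, or calcyclin, binds annexins and the calcyclin-binding protein Cacybp. In lean control IWAT it was 134, 98.8, 139, 85.2 and 110 CPM in mice 0, 2, 3, 6 and 9, and in lean tumor-associated IWAT 189, 197, 205, 125 and 150 CPM. The ranges overlapped, yet the tumor-associated pad was above the control pad of the same animal in 5 of 5 mice. The log2 fold change of 0.61 (SE 0.24, 95% interval 0.11 to 1.12, edgeR adjusted p = 0.192) was not called over all 4 groups, while fitting only the lean libraries gave 0.59 at an adjusted p of 0.0446. Across the alternatives tried, adjusted p lay between 0.0446 and 0.443. In obese mice control IWAT held 146 to 246 CPM with a median of 200, and tumor-associated IWAT 267 to 852 CPM with a median of 462. These groups did not overlap, the tumor-associated pad was higher in 6 of 6 mice, and S100a6 rose by 1.31 on the log2 scale (SE 0.22, edgeR adjusted p = 0.000118), or 2.49-fold.

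Between diets, S100a6 was called in both pads. All 6 obese control pads lay above all 5 lean ones, with means of 197 ± 47.1 CPM (n = 6, SD) and 113 ± 22.8 CPM (n = 5, SD) and a log2 fold change of 0.80 (SE 0.24, edgeR adjusted p = 0.0236). Without lean control mouse 2, lean control mouse 6 or obese control mouse 0, this call was lost at edgeR adjusted p = 0.0576, 0.0713 and 0.0519. In tumor-associated IWAT the means were 490 ± 199.8 CPM (n = 6, SD) and 173 ± 34.3 CPM (n = 5, SD), a log2 fold change of 1.501 (SE 0.24, edgeR adjusted p = 7.51e-05), again without overlap. The difference between the tumor changes was 0.70 (SE 0.33, 95% interval 0.02 to 1.38, edgeR adjusted p = 0.142). It was called without obese tumor-associated mouse 1, at 0.84 with an edgeR adjusted p of 0.0461.

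S100a10 does not bind calcium and forms a complex with annexin A2 that carries channels to the cell surface and acts there as a plasminogen receptor. Its lean control levels were 149, 107, 163, 152 and 135 CPM, and its lean tumor-associated levels 192, 216, 186, 195 and 186 CPM, in mice 0, 2, 3, 6 and 9. No lean tumor-associated library was as low as a lean control library, and S100a10 was higher in 5 of 5 mice. The log2 fold change was 0.47 (SE 0.12, 95% interval 0.23 to 0.71, edgeR adjusted p = 0.0251), or 1.38-fold. With the mouse as a block the value was 0.48 with an edgeR adjusted p of 0.0520, and without the filter on low counts 0.45 with 0.0503, so the call was lost in both. It was also lost without lean tumor-associated mouse 0, lean tumor-associated mouse 2 or lean control mouse 2, with edgeR adjusted p = 0.0865, 0.127 and 0.0704.

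In obese mice S100a10 ran from 138 to 208 CPM with a median of 166 in control and from 272 to 347 CPM with a median of 319 in tumor-associated IWAT. It was higher in 6 of 6 mice, by 0.91 on the log2 scale (SE 0.11, edgeR adjusted p = 3.88e-06). Obese and lean control IWAT differed by 0.25 (SE 0.11, edgeR adjusted p = 0.124), and obese and lean tumor-associated IWAT by 0.69 (SE 0.11, edgeR adjusted p = 7.94e-05), with means of 316 ± 26.6 CPM (n = 6, SD) and 195 ± 12.2 CPM (n = 5, SD) and no overlap. The tumor change was larger in obese mice by 0.44 (SE 0.16, 95% interval 0.12 to 0.77), with an edgeR adjusted p of 0.0714. DESeq2 called this difference at 0.46 with an adjusted p of 0.0345, and edgeR did without obese tumor-associated mouse 1, at 0.496 with 0.0328. Across the alternatives, adjusted p lay between 0.0328 and 0.169.

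S100a11 binds annexin A1 and takes part in membrane repair. It was 48.1, 50.03, 56.8, 59.5 and 52.6 CPM in lean control and 64.2, 72.1, 66.8, 65.3 and 58.1 CPM in lean tumor-associated IWAT of mice 0, 2, 3, 6 and 9. The tumor-associated pad was higher in 5 of 5 mice, while the highest control pad lay above the lowest tumor-associated pad, and the log2 fold change of 0.29 (SE 0.11, 95% interval 0.06 to 0.52, edgeR adjusted p = 0.162) was not called. In obese mice it ran from 33.6 to 54.9 CPM with a median of 47.7 in control and from 53.7 to 70.3 CPM with a median of 65.2 in tumor-associated IWAT. It was higher in 6 of 6 obese mice, by 0.48 on the log2 scale (SE 0.10, edgeR adjusted p = 0.00065), or 1.39-fold. Neither diet comparison was called, at -0.22 (SE 0.10, 95% interval -0.44 to 0.00) in control and -0.03 (SE 0.10, 95% interval -0.25 to 0.19) in tumor-associated IWAT.

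**Figure D2:**
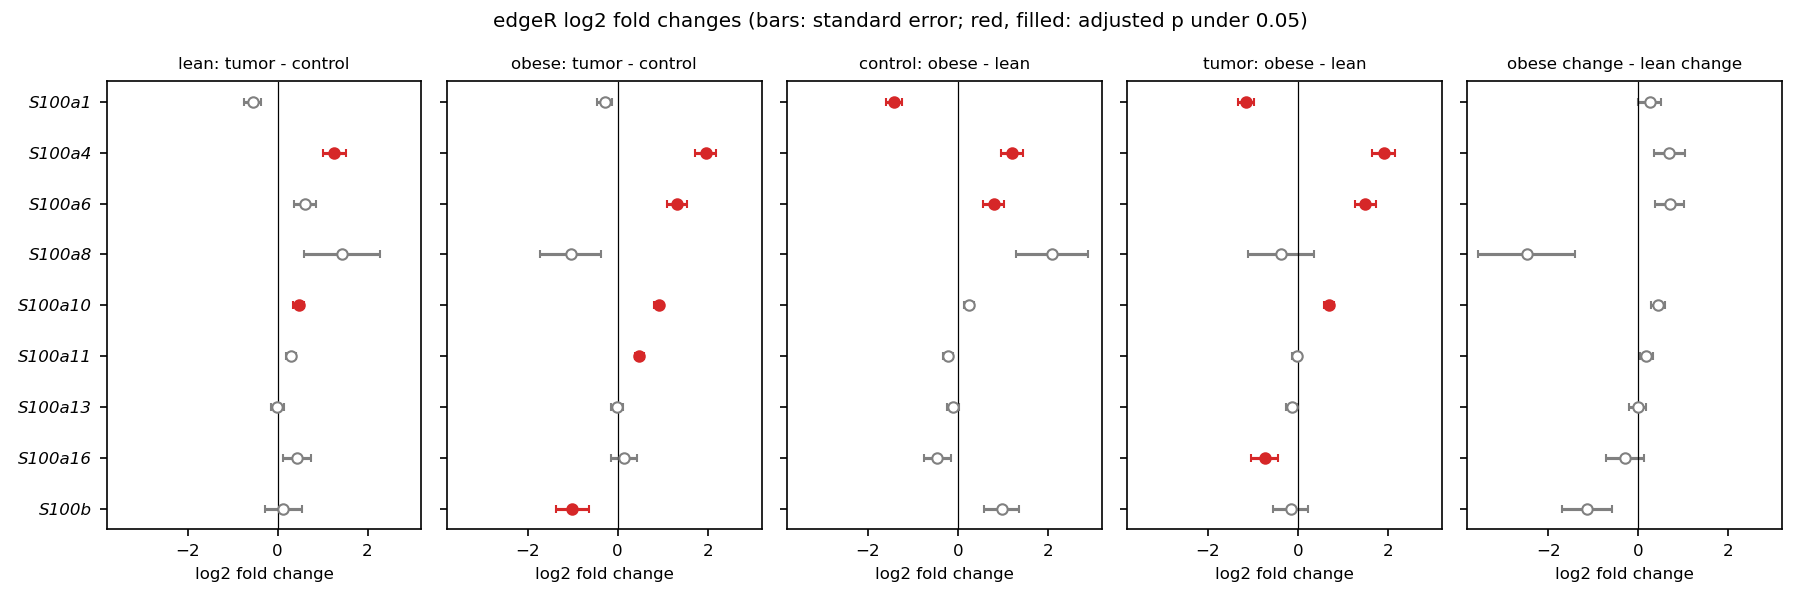
edgeR log2 fold changes (x axis) of the 9 S100 genes tested (y axis) in the 5 comparisons, with bars for the SE and filled red points at an adjusted p under 0.05. S100a4 is called higher in 4 of 5 panels, S100a1 is called lower in both diet panels, and no gene is called in the last panel.

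The partners of these proteins were followed through lists. Of 10 annexins and other intracellular partners, edgeR called 0 in lean tumor-associated IWAT (2 at an unadjusted p under 0.05 and 1 by DESeq2), and 3 higher and 2 lower in obese tumor-associated IWAT. Among all genes 4.18% were called in lean mice, and 26.8% higher and 27.7% lower in obese mice. In obese mice Cacybp, the partner of S100A6, rose by 1.22 on the log2 scale (SE 0.22, edgeR adjusted p = 0.000169) and Anxa4 by 0.65 (SE 0.09, edgeR adjusted p = 2.39e-05), while Anxa6 fell by 0.93 (SE 0.26, edgeR adjusted p = 0.00512) and Ahnak, a large scaffold of the S100A10 and annexin A2 complex, by 0.35 (SE 0.15, edgeR adjusted p = 0.0477). Between diets 7 of the 10 were higher in obese control and 8 of the 10 in obese tumor-associated IWAT, and none was lower. Among all genes 9.54% and 24.7% were called higher in these comparisons. Anxa2, the partner of S100A10, was 0.72 higher in obese control (SE 0.19, edgeR adjusted p = 0.0152) and 0.79 higher in obese tumor-associated IWAT (SE 0.20, edgeR adjusted p = 0.00265). Its tumor changes of 0.31 (SE 0.20) in lean and 0.38 (SE 0.18) in obese mice were not called, with edgeR adjusted p = 0.532 and 0.0849. The tumor change of Cacybp was higher by 1.18 in obese mice (SE 0.32, edgeR adjusted p = 0.0463). Once both pads of obese mice 0, 2 and 4 were left out, 0 partners were called in the difference, where 4 of 14581 genes were. In obese tumor-associated IWAT 3 partners were then called higher and 0 lower, and in lean tumor-associated IWAT 1 higher. Between diets 7 were then higher in control and 9 in tumor-associated IWAT. Among all genes 11.7% were then called higher in obese and 5.95% in lean tumor-associated IWAT, and 14.9% and 14.5% between diets.

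Cell surface plasmin formation, in which S100A10 acts as a plasminogen receptor, was followed through 6 genes. Plat, the tissue plasminogen activator, was the 1 gene called in lean mice, higher by 0.88 (SE 0.19, edgeR adjusted p = 0.00928) in tumor-associated IWAT. Among all genes 3.27% were called higher in lean mice. In obese mice 3 of the 6 were called higher and 1 lower, beside 26.8% and 27.7% of all genes. Plaur, the urokinase receptor, rose by 2.00 (SE 0.23, edgeR adjusted p = 3.53e-06) and Plau, urokinase, by 1.03 (SE 0.22, edgeR adjusted p = 0.000818), and Plat rose by 0.89, while Serpine2, an inhibitor, fell by 0.56 (SE 0.22, edgeR adjusted p = 0.0342). Plaur was 6.11 ± 0.795 CPM (n = 5, SD) in lean control, 9.62 ± 1.93 (n = 5, SD) in lean tumor-associated, 16.2 ± 2.87 (n = 6, SD) in obese control and 64.8 ± 28.7 CPM (n = 6, SD) in obese tumor-associated IWAT, and its tumor change was larger in obese mice by 1.35 (SE 0.35, edgeR adjusted p = 0.0463). Obese exceeded lean mice in 3 of the 6 genes in control and in 4 of the 6 in tumor-associated IWAT. Among all genes 9.54% and 24.7% were called higher. The counts of 3 and 4 stayed the same when both pads of obese mice 0, 2 and 4 were left out. The genes called were then 2 higher in lean mice, 3 higher and 0 lower in obese mice, and 0 in the difference.

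No receptor for released S100 proteins was called higher by edgeR with all libraries. Of 7 receptors and co-receptors, edgeR called 3 lower in obese tumor-associated IWAT and 1 lower with HFD in tumor-associated IWAT. Among all genes 27.7% and 22.4% were called lower in these comparisons. No receptor was called by edgeR in lean mice (1 at an unadjusted p under 0.05 and 0 by DESeq2). It also called 0 between diets in control IWAT (3 and 1) and 0 in the difference (1 and 0). Mcam fell by 1.16 (SE 0.29, edgeR adjusted p = 0.00241) and the scavenger receptor Cd36 by 1.05 (SE 0.31, edgeR adjusted p = 0.00718) in obese tumor-associated IWAT, and Alcam by 0.81 (SE 0.25, edgeR adjusted p = 0.0113). Alcam was also lower with HFD in tumor-associated IWAT, at -0.71 (SE 0.26, edgeR adjusted p = 0.0319). Ager, the receptor RAGE, was at 1.22 ± 0.801 CPM (n = 5, SD) in lean control, 1.08 ± 0.506 (n = 5, SD) in lean tumor-associated, 2.17 ± 0.950 (n = 6, SD) in obese control and 1.31 ± 0.463 CPM (n = 6, SD) in obese tumor-associated IWAT, with at most 25 counts in a library. Tlr4, the innate receptor for S100A8, had tumor changes of 0.55 (SE 0.22) in lean and 0.40 (SE 0.20) in obese mice, with edgeR adjusted p = 0.197 and 0.0957. With both pads of obese mice 0, 2 and 4 left out, no receptor was called lower, and 1 was called higher in lean and 1 in obese tumor-associated IWAT, and between diets 3 in control and 2 in tumor-associated IWAT.

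S100a1, best known from heart and skeletal muscle where it acts on calcium release, went the other way between diets. It was 60.6, 69.3, 85.4, 83.2 and 72.9 CPM in the control IWAT of lean mice 0, 2, 3, 6 and 9 and ran from 21.3 to 37.8 CPM with a median of 26.3 in obese control IWAT. Lean and obese mice did not overlap, and S100a1 fell by 1.42 on the log2 scale (SE 0.18, 95% interval -1.80 to -1.04, edgeR adjusted p = 3.82e-05), to 0.374 of its lean level. In tumor-associated IWAT it was 44.8, 43.1, 55.7, 51.1 and 58.5 CPM in lean mice and from 13.9 to 31.0 CPM with a median of 23.8 in obese mice, a log2 fold change of -1.16 (SE 0.18, edgeR adjusted p = 6.96e-05) without overlap. Both calls held with each library left out in turn. In control IWAT 3 of the 9 S100 genes tested were called between diets, S100a4 and S100a6 higher and S100a1 lower, against 17.1% of all genes, 9.54% higher and 7.53% lower. In tumor-associated IWAT 5 of 9 were called, S100a4, S100a6 and S100a10 higher and S100a1 and S100a16 lower, against 47.0% of all genes, 24.7% higher and 22.4% lower. With upper-quartile normalization the balance over all genes turned, to 1068 higher and 1446 lower in control and 2923 higher and 3943 lower in tumor-associated IWAT, against 1380 and 1088 and 3569 and 3233 with TMM, and the S100 counts in each direction stayed at 2 and 1 and at 3 and 2. Groups that did not overlap were those of S100a6 and S100a8 (higher) and S100a1 (lower) in control IWAT, beside 7.44% and 5.59% of all genes, and those of S100a4, S100a6 and S100a10 (higher) and S100a1 (lower) in tumor-associated IWAT, beside 11% and 13.4% of all genes. The medians over the 9 genes were 0.25 and -0.12, beside 0.04 and 0.03 over all genes.

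Between pads, every lean tumor-associated library of S100a1 lay below every lean control library, and it was lower in 5 of 5 mice. The log2 fold change of -0.55 (SE 0.19, 95% interval -0.95 to -0.16, edgeR adjusted p = 0.118) was nevertheless not called over all 4 groups. It was called at -0.57 when only lean libraries were fitted (edgeR adjusted p = 0.0151) and without obese tumor-associated mouse 4 (edgeR adjusted p = 0.0438). Across the alternatives, adjusted p lay between 0.0140 and 0.287. In obese mice the change was -0.29 (SE 0.18, 95% interval -0.66 to 0.08, edgeR adjusted p = 0.165), with 4 of 6 mice lower. Skeletal muscle markers were at 3.50 to 8.73 CPM summed over 6 genes in lean control and in obese control libraries at 1991 CPM in mouse 1 and at 12.1 to 39.7 CPM in the others, where S100a1 was lower; the sums in lean and obese tumor-associated libraries were 4.76 to 20.4 and 4.19 to 192 CPM. Of the 6 muscle genes 2 were tested, and edgeR called both higher in obese control IWAT and 1, Acta1, lower in obese tumor-associated IWAT. Without obese control mouse 1 these counts were 1 and 0.

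S100a13, which shares the 204 promoter bases shown above with S100a1, is known for its part in the release of fibroblast growth factor from cells. It stayed between 23.1 and 40.3 CPM in all 22 libraries. Its group means were 33.1 ± 4.88 (n = 5, SD), 33.0 ± 3.78 (n = 5, SD), 30.5 ± 4.70 (n = 6, SD) and 30.3 ± 5.24 CPM (n = 6, SD) in lean control, lean tumor-associated, obese control and obese tumor-associated IWAT. None of its log2 fold changes was called, and the 95% intervals were -0.29 to 0.28 for the lean and -0.27 to 0.25 for the obese tumor change, and -0.39 to 0.16 and -0.40 to 0.15 for the diet in control and tumor-associated IWAT. Over the 22 libraries the deviations of S100a1 and S100a13 from their group means correlated at r = 0.62, and those of S100a4 and S100a6 at r = 0.18. These are descriptions, since pads of a mouse share the animal.

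**Figure D3:**
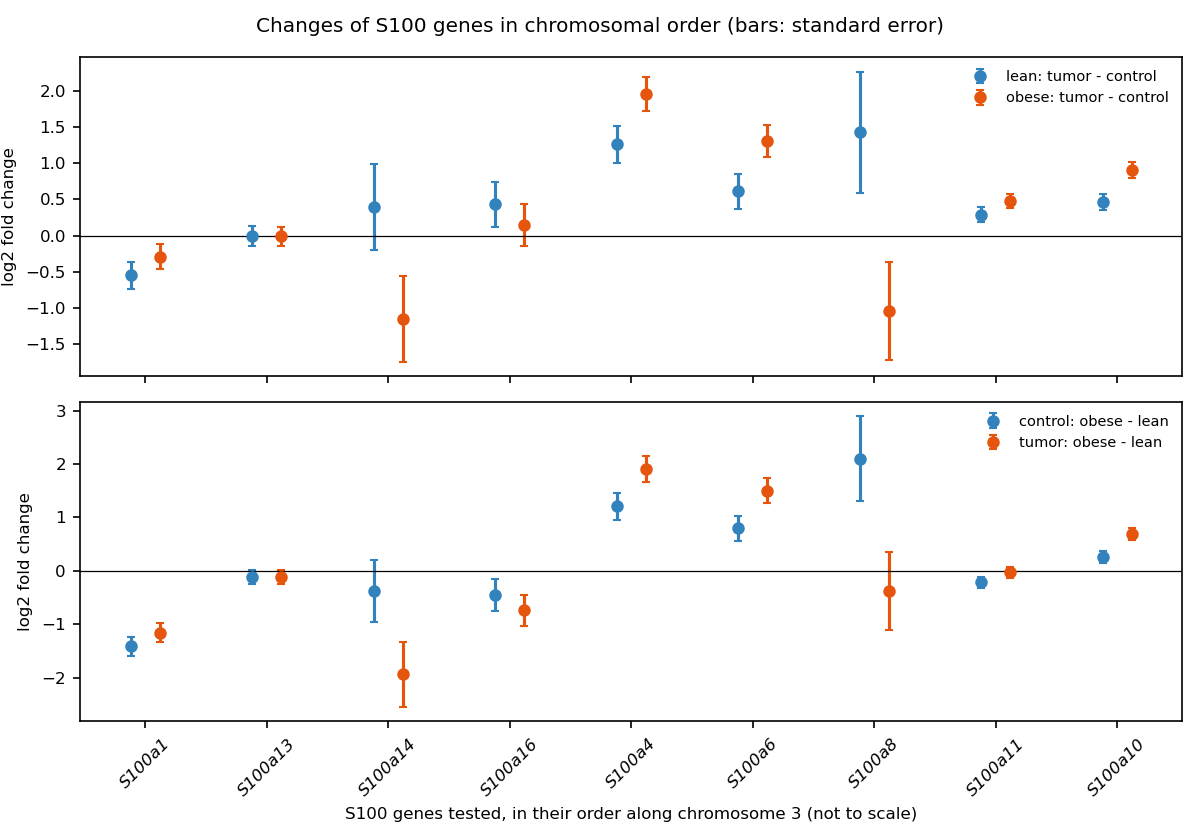
edgeR log2 fold changes (y axis, bars for the SE) of the 9 S100 genes of chromosome 3 that were tested, in their order along the chromosome and not to scale, for the tumor change in lean and obese mice (top) and for the diet in both pads (bottom). S100a4 and S100a6 stand high in both panels, while S100a1 lies below 0 and its neighbor S100a13 near 0.

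S100a16, a widely expressed member, was 57.0, 46.9, 67.8, 65.6 and 48.8 CPM in lean control and 74.2, 93.6, 83.1, 74.1 and 62.1 CPM in lean tumor-associated IWAT of mice 0, 2, 3, 6 and 9. It was higher in the tumor-associated pad of 5 of 5 lean mice, with a log2 fold change of 0.44 (SE 0.31, 95% interval -0.21 to 1.09, edgeR adjusted p = 0.596). In obese mice it ran from 30.0 to 47.1 CPM with a median of 43.3 in control and from 8.12 to 76.0 CPM with a median of 47.9 in tumor-associated IWAT, a log2 fold change of 0.15 (SE 0.29, 95% interval -0.45 to 0.74, edgeR adjusted p = 0.691). The lowest of all 22 values, 8.12 CPM, was that of obese tumor-associated mouse 4. Obese tumor-associated IWAT was below lean tumor-associated IWAT by 0.74 (SE 0.30, edgeR adjusted p = 0.0458). That call was lost in 17 of the 22 fits that left out 1 library, and in a fit to both groups alone (edgeR adjusted p = 0.136). Between control pads the diet value was -0.45 (SE 0.30, edgeR adjusted p = 0.322), which was not called, but was in a fit to both groups alone (edgeR adjusted p = 0.0256) and without obese tumor-associated mouse 4 (edgeR adjusted p = 0.0362).

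S100b, the classical marker of Schwann cells and astrocytes that adipocytes also make, was low. Lean control IWAT held 2.90, 4.72, 6.28, 2.99 and 2.03 CPM and lean tumor-associated IWAT 2.42, 5.596, 2.99, 3.22 and 6.49 CPM in mice 0, 2, 3, 6 and 9, with 3 of 5 mice higher in the tumor-associated pad and a log2 fold change of 0.13 (SE 0.41, 95% interval -0.72 to 0.97, edgeR adjusted p = 0.980). In obese mice control IWAT ran from 2.73 to 10.8 CPM with a median of 7.73 and tumor-associated IWAT from 1.35 to 5.49 CPM with a median of 3.86. S100b was lower in 5 of 6 obese mice, by -1.01 on the log2 scale (SE 0.37, 95% interval -1.77 to -0.25, edgeR adjusted p = 0.0248), and the ranges overlapped. With the mouse as a block the value was -1.02 and the call was lost (edgeR adjusted p = 0.0658), as it was without obese tumor-associated mouse 0 (edgeR adjusted p = 0.0564) or obese control mouse 0 (edgeR adjusted p = 0.0597). Obese control exceeded lean control IWAT by 0.98 (SE 0.39, edgeR adjusted p = 0.0886), which was not called, except without obese control mouse 1, at 1.14 with an edgeR adjusted p of 0.0448.

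The adipocyte and Schwann cell lists fell in the same comparison as S100b. All 7 adipocyte markers tested, such as Adipoq (-1.52) and Plin1 (-1.19), were called lower in obese tumor-associated than in obese control IWAT. Among all genes 27.7% were called lower in that comparison. In lean mice edgeR called 0 adipocyte markers (1 at an unadjusted p under 0.05 and 0 by DESeq2). Their sums were 8488 to 11171 CPM in lean control, 5269 to 8531 in lean tumor-associated, 12162 to 21926 in obese control and 1703 to 10554 CPM in obese tumor-associated libraries; between diets 2 were higher in control IWAT, and 1 was higher and 2 were lower in tumor-associated IWAT. Of 5 Schwann cell markers, 3 were lower in obese tumor-associated than in obese control IWAT (Sox10 and Cdh19 among them). In lean mice edgeR called 0 (0 at an unadjusted p under 0.05 and 0 by DESeq2), and 1 and 4 were lower in obese than in lean control and tumor-associated IWAT. Among all genes 7.53% and 22.4% were called lower between diets in these pads. The Schwann sums were 52.7 to 77.5, 45.9 to 92.8, 21.7 to 47.6 and 4.46 to 28.6 CPM in the same order. Obese control IWAT held the highest S100b median, and S100b was not called between the control pads (edgeR adjusted p = 0.0886). The Schwann sums of obese control libraries lay below those of all lean control libraries, with 1 of the 5 markers called. With both pads of obese mice 0, 2 and 4 left out, 4 adipocyte markers and 1 Schwann cell marker were called lower in obese tumor-associated than in obese control IWAT, 3 adipocyte markers were called lower in lean tumor-associated IWAT, and between tumor-associated pads 3 were higher and none lower with HFD. The part of these cells in the S100b result was not tested.

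S100a8 and S100a9, the calprotectin subunits that neutrophils carry in large amounts, were near the limit of detection. S100a8 was at 0.348, 0.525, 0.153, 0.528 and 0.848 CPM in lean control IWAT of mice 0, 2, 3, 6 and 9, which is 1 to 5 counts a library, and at 0.151, 5.44, 0.272, 0 and 0.772 CPM in lean tumor-associated IWAT, where mouse 2 alone had 35 of the group's 43 counts. Obese control IWAT ran from 0.868 to 3.44 CPM with a median of 1.97, and every obese control library lay above every lean control library. The log2 fold change of 2.10 (SE 0.80, 95% interval 0.44 to 3.75, edgeR adjusted p = 0.0735) was not called by edgeR; DESeq2 called it at 2.12 with an adjusted p of 0.0455, and across the alternatives adjusted p lay between 0.0102 and 0.157. Obese tumor-associated IWAT ran from 0.645 to 1.83 CPM with a median of 0.926, below the control pad in 6 of 6 mice, with a log2 fold change of -1.05 (SE 0.68, edgeR adjusted p = 0.194).

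The lean tumor change of S100a8 was 1.43 (SE 0.84, edgeR adjusted p = 0.449) and turned to -0.68 without mouse 2. Without that library S100a8 was also called higher in tumor-associated IWAT of obese mice, at 1.72 (edgeR adjusted p = 0.0301), against -0.38 relative to lean mice (SE 0.73, edgeR adjusted p = 0.688) with it. S100a9 held 0 to 8 counts in 20 of 22 libraries; the exceptions were lean tumor-associated mouse 2 with 33 counts (5.13 CPM) and obese tumor-associated mouse 8 with 17 counts (2.39 CPM). In a fit without the filter on low counts S100a9 was called in no comparison, with edgeR adjusted p from 0.393 to 0.767. Of 9 neutrophil markers with a row in the deposited counts, 2 were tested. Csf3r, which monocytes and macrophages also express, rose by 1.34 (SE 0.28, edgeR adjusted p = 0.00857) in lean and by 1.60 (SE 0.25, edgeR adjusted p = 6.31e-05) in obese tumor-associated IWAT, and Ltf, which mammary epithelium also makes, was lower in obese than in lean mice in both pads. The other 7 had group means of at most 2.14 CPM, and the granule genes Mpo, Elane and Camp had at most 4 counts in any library. The summed list, most of it Ltf, ran from 146 to 335, 145 to 434, 77.2 to 159 and 36.8 to 179 CPM in lean control, lean tumor-associated, obese control and obese tumor-associated libraries.

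Compared per length, the order of the genes changed with tumor and diet. In lean control IWAT S100a10 had the highest level, 176 ± 26.8 CPM per kb of exon (n = 5, SD), before S100a6 at 140 ± 28.2, S100a1 at 107 ± 14.7 and S100a11 at 104 ± 9.24 CPM per kb, and the ranges of these neighbors overlapped. S100a4 was seventh there, at 32.9 ± 10.2 CPM per kb (n = 5, SD), its range overlapping that of S100a16 above it and not that of S100b below it. Of the 498 exon bases of S100a4, 302 are shared with Gm42674. That gene is no row of the deposited table, while S100z, with 0 counts in all 22 libraries, is one. How reads on the shared bases were counted is not given in the sources used here. If they were dropped, the level of S100a4 per length and its place in the order are too low. In lean tumor-associated IWAT S100a4 reached 79.1 ± 21.4 CPM per kb (n = 5, SD), overlapping S100a1 at 73.0 ± 9.65. In obese tumor-associated IWAT S100a6 led at 606 ± 247 CPM per kb (n = 6, SD), before S100a10 at 394 ± 33.2 and S100a4 at 296 ± 71.9 CPM per kb. Neighbors among these 3 overlapped, and each S100a4 value lay above all S100a11 values (105 to 138 CPM per kb). S100a1 had fallen there to 32.6 ± 9.37 CPM per kb (n = 6, SD), overlapping S100a13 and S100a16.

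**Figure D4:**
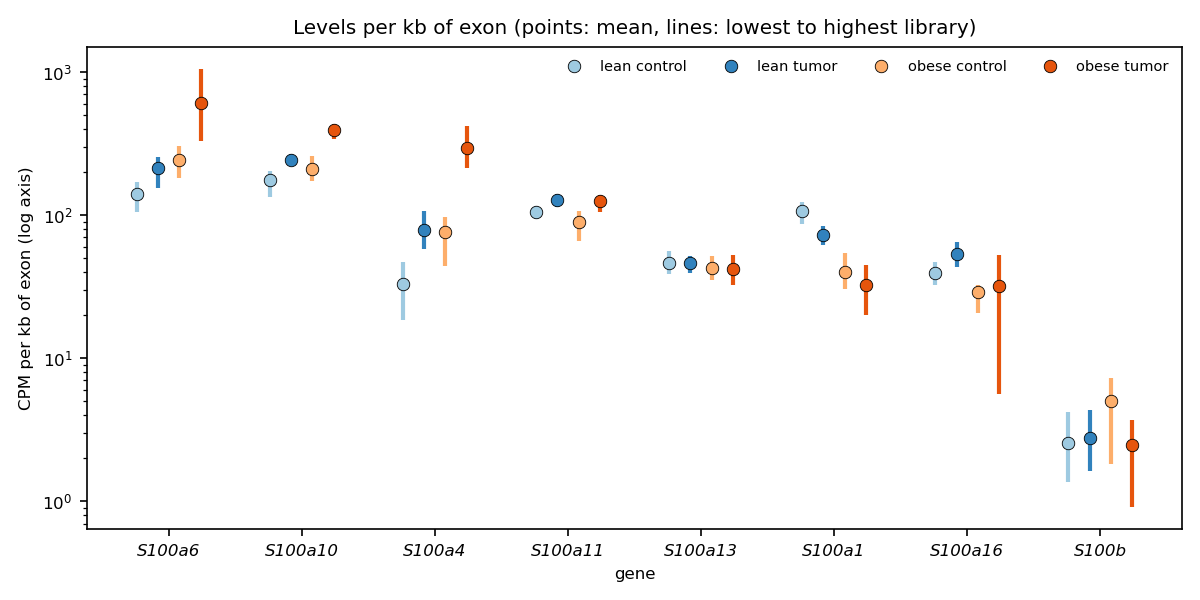
CPM per kb of exon (y axis, log scale) of 8 S100 genes by group, with points for means and lines from the lowest to the highest library. S100a4 moves from 32.9 in lean control to 296 CPM per kb in obese tumor-associated IWAT, while S100a13 keeps between 42.3 and 46.2 CPM per kb.

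Summed over the 10 genes, S100 RNA made up 426 to 575 CPM in lean control, 570 to 727 in lean tumor-associated, 465 to 664 in obese control and 859 to 1438 CPM in obese tumor-associated libraries. The lowest obese tumor-associated library thus lay above all 16 others. S100a10 took 28.5% to 30.6% of that sum in the mean of every group. S100a4 took 3.4% of it in lean control and 13.2% in obese tumor-associated IWAT, S100a6 22.9% and 42.5%, and S100a1 15.1% and 2.1%.

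The difference between the obese and the lean tumor change was called for 0 of 9 S100 genes by edgeR and for 4.92% of all genes. Among all genes, 2.58% were called with a higher and 2.34% with a lower tumor change in obese mice. At an unadjusted p under 0.05 edgeR gave 3 (S100a6, S100a8 and S100a10), for which no share over all genes is given here. DESeq2 called 1 S100 gene, S100a10, and 15.9% of all genes. The median difference over the 9 genes was 0.19, beside -0.04 over all genes. For S100b it was -1.14 (SE 0.55, 95% interval -2.28 to 0.00, edgeR adjusted p = 0.152) and for S100a8 -2.48 (SE 1.08, edgeR adjusted p = 0.119), the latter resting on lean tumor-associated mouse 2.

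Germline and embryonic genes, a list of 10 such as Rhox5 and Hmga2 that had been picked on these libraries in earlier work and is therefore no independent evidence, were summed in each library. Their sum was 0.348 to 2.45 CPM in lean control, 0.622 to 9.09 in lean tumor-associated and 5.99 to 85.7 CPM in obese control libraries. In obese tumor-associated IWAT it was 441, 40.1, 509, 171, 999.7 and 102 CPM in mice 0, 1, 2, 3, 4 and 8, so mouse 1 lay below the highest obese control library. All 10 were called higher in obese tumor-associated than in obese control and in lean tumor-associated IWAT, 7 between the control pads, and edgeR called 0 in lean mice and 0 in the difference (0 at an unadjusted p under 0.05 in both, and 0 by DESeq2). S100a6 was lowest, at 267 CPM, in the obese tumor-associated pad with the lowest germline sum (mouse 1) and highest, at 852 CPM, in the pad with the highest (mouse 4). S100a16, at 8.12 CPM, and S100b, at 1.35 CPM, were lowest in that of mouse 4. S100a4 was highest, at 209 CPM, in mouse 8, whose germline sum was 102 CPM.

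**Figure D5:**
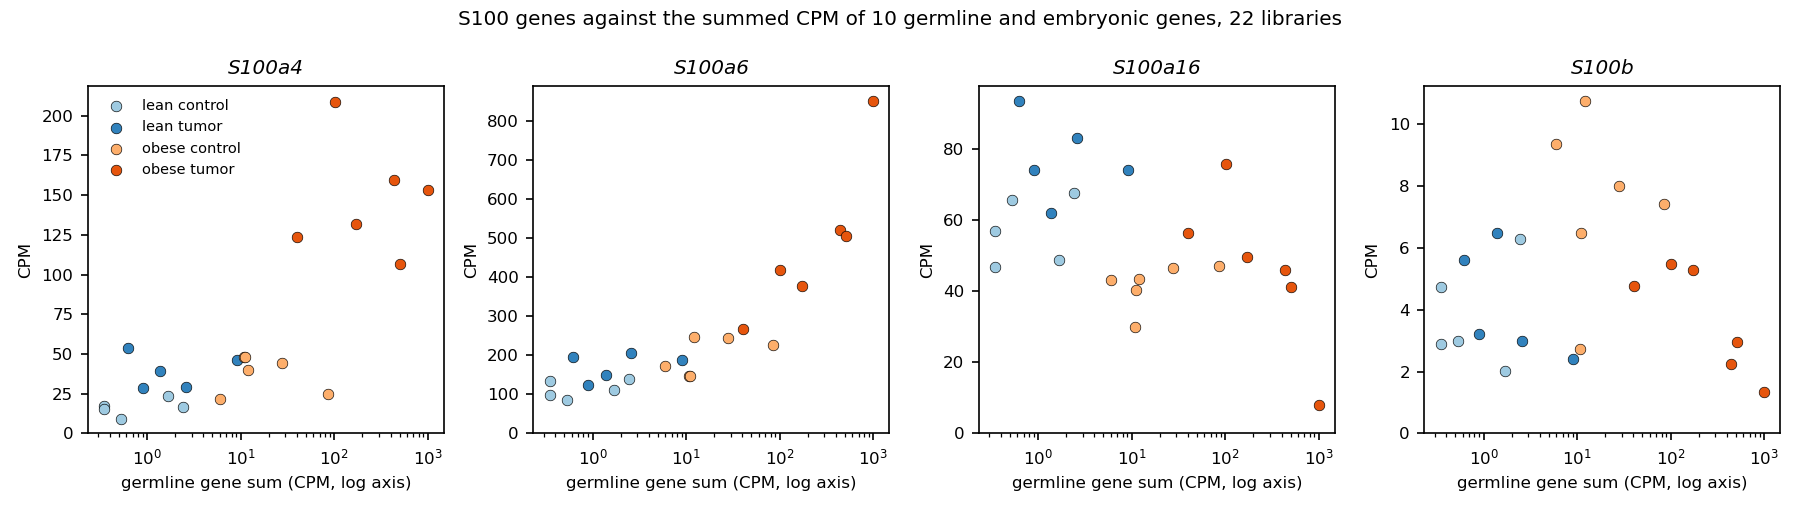
CPM of S100a4, S100a6, S100a16 and S100b (y axes) against the summed CPM of the 10 germline and embryonic genes (x axis, log scale) in 22 libraries colored by group. Among the 6 obese tumor-associated libraries S100a6 is highest and S100a16 and S100b are lowest at the right end, at a sum of 999.7 CPM.

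Both pads of obese mice 0, 2 and 4, which had the highest sums, were then left out. In that fit 7 germline and embryonic genes were still called higher in obese tumor-associated than in obese control IWAT. With HFD, 7 were still higher in control and 8 in tumor-associated IWAT. The fit therefore does not remove the germline difference, and whether the S100 calls depend on it was not tested. The S100 values of the same fit follow. S100a4 (1.73, edgeR adjusted p = 0.00121), S100a6 (0.98, edgeR adjusted p = 0.0120), S100a10 (1.05, edgeR adjusted p = 0.000476) and S100a11 (0.58, edgeR adjusted p = 0.0104) were still called higher in obese tumor-associated than in obese control IWAT. The S100b change was -0.15 (edgeR adjusted p = 0.830), and S100a16 was called higher at 0.64 (edgeR adjusted p = 0.0343). The call of S100a16 between lean and obese tumor-associated IWAT was lost, at -0.35 (edgeR adjusted p = 0.154), and those of S100a1 (-0.86, edgeR adjusted p = 0.000810), S100a4 (1.98, edgeR adjusted p = 5.8e-05), S100a6 (1.03, edgeR adjusted p = 0.00257) and S100a10 (0.70, edgeR adjusted p = 0.000942) held. Calls were gained for S100a16, lower in obese than in lean control IWAT at -0.57 (edgeR adjusted p = 0.0316), and for S100a1, lower in lean tumor-associated IWAT at -0.57 (edgeR adjusted p = 0.0140).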

How the data were processed

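RNA from control and tumor-associated IWAT of 5 lean and 6 obese mice was sequenced after depletion of ribosomal RNA. The authors assessed the reads with FastQC, trimmed with prinseq and aligned to mm10 using STAR (version 2.4.0f in the submitters' processing notes) and counted them with HTSeq; the strand setting and the annotation are not given in the sources used here. The deposited values are raw, unnormalized counts for 23420 gene symbols beside 5 lines of HTSeq totals, which were left out; the line for reads on no gene held 38.5% to 48.8% of the reads of a library. Every sample column was used. Diet, pad and mouse came from the sample labels. Without a known strand setting, reads of genes on opposite strands cannot be told apart; this bears on S100b, which overlaps an intron of Dip2a.

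With edgeR 4.0.16 (R 4.3.3) the counts were put into 1 quasi-likelihood fit of the 4 groups without a block (TMM, filterByExpr with its minimum count of 10, Benjamini-Hochberg, threshold 0.05) and 5 contrasts. The SE is the log2 fold change divided by the square root of F. The study names DESeq2; DESeq2 1.42.0 was an alternative, as were upper-quartile and RLE normalization, no filter, at least 10 counts in every library, each pair of groups alone, a block for the mouse, both pads of obese mice 0, 2 and 4 left out, and each library left out in turn. The fits were tested on simulated counts. Total counts of 5759775 to 8598108 make a level of 1 CPM about 6 to 9 counts.

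Both pads of a mouse come from 1 animal and carry its number. In lean mice, deviations from group means correlated between both pads at a median of 0.508 (5 of 5 pairs over 0.1; -0.124 between pads of unlike mice). In obese mice the median was 0.168 (4 of 6 pairs over 0.1; -0.0721 between unlike mice). The smallest chi-square per degree of freedom between libraries of a group was 5.95 over 50 pairs.

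The S100 genes and the lists (other S100 genes, receptors, annexins and partners, plasminogen activation, neutrophil, macrophage, fibroblast, adipocyte, Schwann cell, muscle, mammary epithelium and lymphocyte markers, germline genes) were chosen with earlier results of these data known. Named are all 10 S100 genes, other S100 genes of the table, the called genes with the largest changes of each partner list, and the 3 genes most like each S100 gene, of which some are not reported here; Ager, Tlr4, Anxa2 and the markers were named after their values were seen. Likeness is the Pearson correlation of log2 CPM (prior count 2) after subtracting group means. Positions and exon lengths come from GENCODE M21, which placed all 10 genes, and promoters from RefSeq.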

Additional observations from a re-analysis of the deposited data

Results flagged for a closer look

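In 40 groups of 5 or 6 libraries (10 genes in 4 groups), 4 libraries stood apart from the rest of their group by Dixon's criterion at the 95% level, which chance does in about 1 of 20 groups. Of these, 3 were the same pad, the tumor-associated IWAT of lean mouse 2, which was the highest of its group for S100a8 (5.44 CPM, the next at 0.772), S100a9 (5.13 CPM, the next at 0.772) and S100a10 (216 CPM, the next at 195). The fourth was S100a8 in the tumor-associated IWAT of obese mouse 8, at 1.83 CPM with the next at 0.962. The control pad of lean mouse 2 had 0.525 CPM of S100a8 and 0.875 CPM of S100a9.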

How the results depend on the processing

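Depth limits S100a8, S100a9 and S100b, with under 70 counts in every library, and a call missed for them does not show equal levels. The counts of S100 genes called stayed within 1.5 times with upper-quartile and RLE normalization and with at least 10 counts in every library, which leaves no value for S100a8. The median of all genes moved by less than 0.1 under every scaling. In lean mice the S100 genes called were 4 and all genes called 1437 (10.5%) with the groups alone. Without a filter 1 S100 gene and 2.12% of all genes were called in lean mice. DESeq2 called 913 genes there (6.48%). With the mouse as a block, S100 genes called were 1 in lean and 4 in obese mice, where 4.63% and 53.1% of all genes were called. S100a10 (lean) and S100b (obese) lost their calls, and no other S100 call changed. The diet comparisons are between mice and have no block. For the difference between tumor changes DESeq2 called 1 S100 gene and 2364 genes, and edgeR 18 genes without a filter. With obese mice 0, 2 and 4 left out, all genes called were 1325 (lean tumor change), 3371 (obese tumor change), 4034 and 4456 (diet in control and tumor-associated IWAT) and 4 (difference).

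Leaving out 1 library gave 1 to 3 S100 genes and 183 to 952 of all genes in lean mice, 4 to 5 and 6915 to 8403 in obese mice, 2 to 4 and 1606 to 3428 between control pads, 4 to 5 and 5902 to 7464 between tumor-associated pads, and 0 to 2 and 1 to 3568 for the difference; the lowest lean count of all genes was that without lean tumor-associated mouse 2.

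The following values turned direction. The S100a13 difference became 0.0057 with DESeq2, 0.0024 with RLE, 0.0069 without a filter, 0.20 without obese mice 0, 2 and 4, and -0.0904 to 0.0565 with 1 library out. The lean S100a13 change was 0.00079 with the block and -0.0587 to 0.0785 with 1 library out, and the obese one 0.18 without those mice and -0.0816 to 0.0480. The obese S100a16 change was -0.018 with the block and -0.0516 to 0.35 with 1 library out. Without those mice the obese S100a1 change was 0.11, the S100a16 difference 0.22, and the diet values in tumor-associated IWAT 0.0732 for S100a11, 0.0315 for S100a13 and 0.33 for S100b. With 1 library out the lean change ran from -0.68 to 1.77 for S100a8 and from -0.11 to 0.39 for S100b, and the diet value in tumor-associated IWAT from -0.71 to 1.72 for S100a8, from -0.0724 to 0.0102 for S100a11 and from -0.31 to 0.0512 for S100b. The cause was not tested.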

Other observations

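Among 7 other S100 genes in the table, S100a14 and S100g were tested. S100a14, an epithelial member, was 0.926 ± 0.640 CPM (SD, n = 6) in obese tumor-associated against 3.61 ± 2.65 CPM (SD, n = 5) in lean tumor-associated IWAT, lower by -1.94 on the log2 scale (SE 0.60, edgeR adjusted p = 0.0124). S100g, the calcium carrier of gut epithelium, was 0.482 ± 0.316 CPM (SD, n = 6) in obese tumor-associated against 2.09 ± 1.09 CPM (SD, n = 6) in obese control IWAT, at -2.06 (SE 0.78, edgeR adjusted p = 0.0309). Obese tumor-associated libraries held only 3 to 16 counts of S100a14 and 1 to 7 of S100g. Neither call was made when both pads of obese mice 0, 2 and 4 were left out. All 6 mammary epithelium markers were called lower with HFD in tumor-associated IWAT, 5 lower in obese tumor-associated than in obese control IWAT, 2 lower in obese than in lean control IWAT, and 1 (Cdh1) in the difference. In lean mice edgeR called 0 of them (0 at an unadjusted p under 0.05 and 0 by DESeq2). Lower calls among all genes were 22.4%, 27.7%, 7.53% and 2.34% in the comparisons with calls, in the order given. When both pads of obese mice 0, 2 and 4 were left out, 0 mammary epithelium markers were called between obese pads and 0 in the difference. All 6 were then called lower with HFD in control and in tumor-associated IWAT. Of 6 lymphocyte markers 1, Cd8a, was called, higher in obese control IWAT. S100a3, which did not pass the filter, ran from 0 to 1.92 CPM (0 to 13 counts) in obese tumor-associated pads and was at most 0.431 CPM in the other 3 groups, and without the filter its obese tumor change was called at 2.66 (SE 0.83, edgeR adjusted p = 0.0145). Mice 0 and 4 had 12 and 13 of the 35 S100a3 counts in obese tumor-associated pads. S100a2, S100a5 and S100a7a had at most 11 counts in a library, and S100z 0 in all 22.

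Over the 22 libraries, after subtracting group means, the genes most like S100a4 were Iqgap1 (r = 0.883), Evi2a (r = 0.800) and Myd88 (r = 0.797), and those most like S100a6 were Gm14005 (r = 0.899), Myof (r = 0.890) and Slc25a24 (r = 0.875). For S100a10 they were Nenf (r = 0.815), Actr1a and Sdc2 (r = 0.774), for S100a11 Pex11c (r = 0.813) and Cript (r = 0.787), and for S100a1 D7Ertd715e (r = 0.892), Acaa2 and Heyl (r = 0.859). For S100a13 they were Cyb5r3 (r = 0.903), Gabarap and Akr1a1 (r = 0.881), for S100a16 Ext1 (r = 0.969), Pcdh19 and Ndn (r = 0.958), for S100b Fam229b (r = 0.833), Dynlt3 and Zkscan4 (r = 0.797), and for S100a8 A4galt (r = 0.794) and Myd88 (r = 0.730). With 1 library left out, S100a4 and Iqgap1 kept between 0.868 and 0.906, S100a16 and Pcdh19 between 0.755 and 0.974, and S100a8 and Myd88 between 0.457 and 0.796. These are descriptions over pads that share 11 mice, chosen as the highest of all genes tested.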
